A study of Homo sapiens and Mus musculus with 61 samples.

Results

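The histone gene cluster on chromosome 6p was followed here through regions recovered by biotin-tagged, catalytically inactive Cas9. Members were the listed regions whose centre lay in hg19 between positions 26000000 and 27900000 of chromosome 6. This rule was met by 227 of the 143198 entries in the 17 guide tables. They fell on 205 distinct intervals of 300 bp and, once overlapping intervals were merged, on 107 loci. An entry of 1 region in 1 table is called a listing below.

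In CAPTURE-ChIP-seq the tagged Cas9 is steered by a guide RNA and captured on streptavidin, after which the attached DNA is read by sequencing. All libraries used here came from K562, an established human leukaemia line, and all carried the tagged Cas9. The guides were named for sites of the beta-globin locus on chromosome 11, so none was named for a histone gene. The reference group was sgGal4, a guide against a yeast sequence, with 4 libraries that enter every table.

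There were 42 guide libraries. The first guides to the hypersensitive sites of the globin enhancer were sgHS1 with 2 libraries, sgHS2 with 5, sgHS3 with 3, sgHS4 with 2 and sgHS5 with 3. The second guides to the same sites were sgHS1-sg2 with 2 libraries, sgHS2-sg2 with 1, sgHS3-sg2 with 1, sgHS4-sg2 with 2 and sgHS5-sg2 with 2. The pool sgHS1-5 had 6 libraries. The guides named for globin genes were sgHBB with 1 library, sgHBB-sg2 with 2, sgHBG with 4, sgHBG-sg2 with 2 and sgHBD-1kb with 2, and sg3'HS1, named for a site at the far end of the locus, had 2. The labels number the replicates and do not say that they came from separate cultures, so each p-value below reflects the scatter among libraries alone, possibly of technical origin.

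The window holds the largest set of replication-dependent histone genes in the human genome. These short genes encode the linker histone H1 and the core histones H2A, H2B, H3 and H4, lack introns, and are transcribed mainly in S phase, when new DNA has to be packed into nucleosomes. Each family has several gene copies with related coding sequences. The same stretch of chromosome 6p is also known for its many transfer RNA genes, which RNA polymerase III transcribes from promoters inside the genes. Between the histone blocks lie butyrophilin genes, which act in immune cells, and zinc finger genes.

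The annotation placed 53 histone genes in the window, 6 of family H1, 11 of H2A, 14 of H2B, 10 of H3 and 12 of H4, beside 15 other protein-coding genes. RefSeq listed 98 transfer RNA genes between H1-1 and H2BC17, its outermost histone genes here, without coordinates on this build.

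The sequences of 5 members are given first, because the results below turn on them or on the features they hold. All are the plus strand of hg19. In the first 4, capitals mark bases that lie in a run of 30 bases found at least once more in the genome on either strand, since the labels state that reads with more than a single place in the genome were dropped. The region over H3C7 lay at chr6:26250538-26250837 and was listed with exactly this interval in 9 tables; it covers the start of the coding exon of H3C7, which runs on the minus strand. The region at chr6:27618634-27618933 was listed with this interval in 14 tables and lies between the coding genes ZNF184 and H2BC13. The annotation used names no gene in this region. It names transfer RNA genes at other member loci, TRNAI2 at 26987662 to 26988177 and TRNAI6 at 27599029 to 27599592. It is not a full list of such genes, so it cannot show whether one lies here. Read on the minus strand, the first block of capitals has the letters known from valine transfer RNA genes, although the B box search described below found no match in this region. The region at chr6:27831604-27831903, which reaches into the histone pseudogene H2BC16P, had the highest ratio of all members. The region at chr6:26568828-26569127 was also higher with a guide. In the last, at chr6:26577256-26577555, capitals mark a B box, the inner promoter element of transfer RNA genes, searched on both strands as an 11-base consensus with 1 free position.

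H3C7: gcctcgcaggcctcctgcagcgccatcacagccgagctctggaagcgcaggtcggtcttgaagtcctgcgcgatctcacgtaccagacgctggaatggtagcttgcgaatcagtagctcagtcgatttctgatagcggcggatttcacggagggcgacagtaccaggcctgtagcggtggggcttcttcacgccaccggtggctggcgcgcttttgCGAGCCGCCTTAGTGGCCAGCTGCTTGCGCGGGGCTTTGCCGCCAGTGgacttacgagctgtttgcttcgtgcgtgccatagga
ZNF184-H2BC13: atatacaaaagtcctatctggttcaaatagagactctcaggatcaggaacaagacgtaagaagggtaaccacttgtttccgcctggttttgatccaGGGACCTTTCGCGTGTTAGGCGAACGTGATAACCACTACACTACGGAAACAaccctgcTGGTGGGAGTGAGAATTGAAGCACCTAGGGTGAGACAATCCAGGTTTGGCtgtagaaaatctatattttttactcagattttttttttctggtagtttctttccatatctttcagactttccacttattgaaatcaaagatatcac
H2BC16P: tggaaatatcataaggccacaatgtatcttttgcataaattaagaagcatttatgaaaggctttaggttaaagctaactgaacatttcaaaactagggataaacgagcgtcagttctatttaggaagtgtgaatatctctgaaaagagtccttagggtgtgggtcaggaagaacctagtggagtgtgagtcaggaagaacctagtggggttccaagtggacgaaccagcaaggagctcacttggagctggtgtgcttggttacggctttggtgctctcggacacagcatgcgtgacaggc
ABT1 flank: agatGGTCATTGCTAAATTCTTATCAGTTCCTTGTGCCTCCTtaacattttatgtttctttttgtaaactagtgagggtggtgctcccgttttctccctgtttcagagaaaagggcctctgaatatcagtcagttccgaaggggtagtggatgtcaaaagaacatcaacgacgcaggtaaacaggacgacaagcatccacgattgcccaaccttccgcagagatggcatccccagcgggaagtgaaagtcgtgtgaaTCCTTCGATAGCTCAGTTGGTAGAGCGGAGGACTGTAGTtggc
B box: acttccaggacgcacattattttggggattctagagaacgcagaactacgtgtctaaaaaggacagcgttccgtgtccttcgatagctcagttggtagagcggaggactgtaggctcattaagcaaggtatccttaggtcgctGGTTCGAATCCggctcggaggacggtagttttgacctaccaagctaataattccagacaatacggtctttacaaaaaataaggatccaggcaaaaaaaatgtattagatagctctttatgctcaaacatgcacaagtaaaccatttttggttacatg

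The H3C7 region had 48 bases in capitals and the ZNF184-H2BC13 region 101, with up to 11 copies of a run. The H2BC16P region had 0, so each of its runs was found in the genome only there. Of the 205 member intervals 94, or 45.9%, held at least 1 run of 30 bases found elsewhere. This was the case for 16 of 36 intervals at a histone gene start and for 2 of 16 at the start of another gene. A gene start here means a region centre within 1000 bp of the annotated transcription start.

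The window was listed more densely than the genome. It held 7.03 listings per megabase and table, against 2.77 over all listed chromosomes, and it took up 0.159% of the listings with 0.0626% of the bases. The number of members ran from 3 of 4217 regions in the sgHS1 table to 27 of 16655 in the sgHS5 table. Of the 107 loci 71 were listed in 1 table, 25 in 2 to 4 tables, 9 in 5 to 16 and 2 in all 17 tables. The authors' tag for on-target or off-target regions was set for 0 of the members.

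The listed regions lay at the starts of a minority of the histone genes, and the same share over all coding genes was not counted. Of the 53 histone genes 16 had a member within 1000 bp of their start: 8 of 12 H4 genes, 4 of 10 H3 genes, 2 of 14 H2B genes, 1 of 11 H2A genes and 1 of 6 H1 genes. These members numbered 45 listings at 14 loci, since neighbouring genes share a region. A further 16 listings lay at the start of another gene and 166 at neither.

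The deposited value is a log2 level per library, and the ratio used throughout sets a table's guide libraries against its sgGal4 libraries, as the log2 of the quotient of their averaged linear levels. Over the 227 listings the median ratio was 0.49, with a range of -2.61 to 4.78. The median over all listings was 0.08. Both medians moved with the scale: on recovered reads with a pseudocount of 5 reads they were -0.73 and -1.01, and with 1 read -0.012 and -0.47. A ratio of at least 1 was seen for 54 members, or 23.8%, beside 17.3% of all listings. Every guide level was above every sgGal4 level in 58 members, beside 14.5% of all listings, and below in 15, beside 23.5%.

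**Figure D1:**
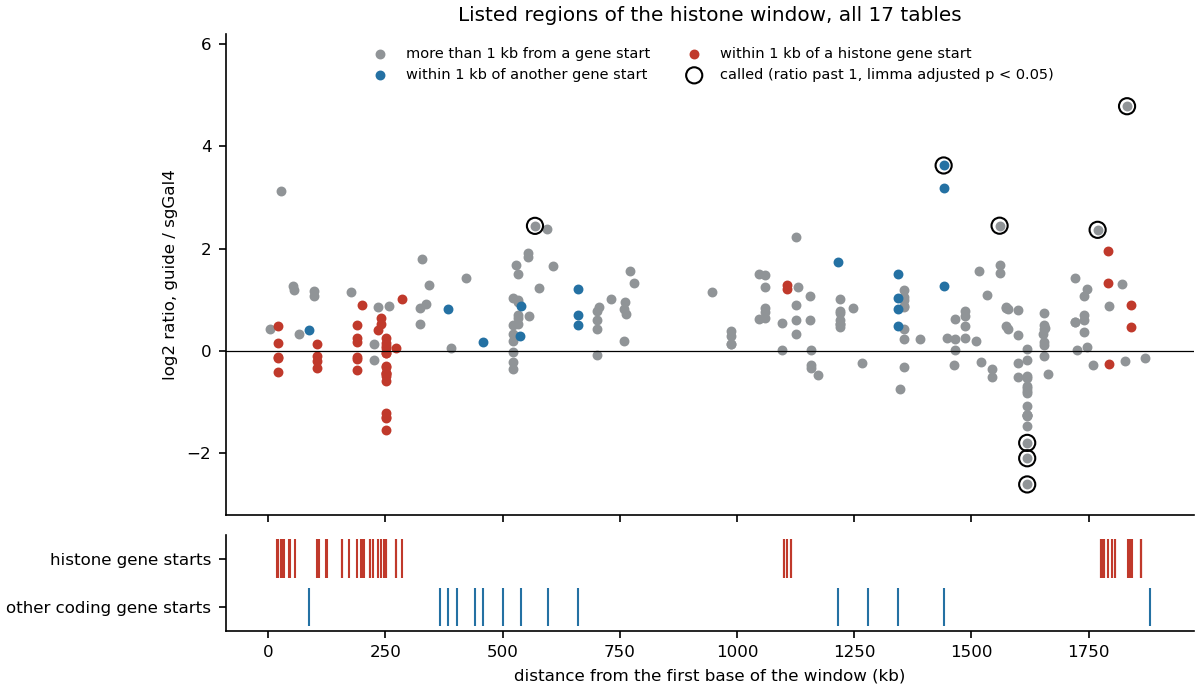
Log2 ratio of guide to sgGal4 for each of the 227 listings (points, upper panel) against the distance of the region's centre from the first base of the window in kb, with the starts of 53 histone genes and 15 other coding genes below. Points at histone starts lie around 0 (median -0.04), those at other gene starts all lie above 0 (median 0.85), and the 8 called listings are ringed.

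A difference was called with a ratio of at least 1 in size and a limma adjusted p below 0.05 within the table. Higher with the guide were 5 members, 2.20% of the 227, beside 1.66% of all listings. Lower were 3 members, 1.32%, beside 11.2% of all. Before adjustment 43 members, or 18.9%, had a limma p below 0.05, beside 31.5% of all. The share called higher was thus near that of all listings.

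The kind of interval went with the sign of the ratio. How intervals entered the lists is not given in the sources used here, so the sign and the way an interval came to be listed cannot be told apart. Some intervals were listed with the same coordinates in more than 1 table, and these made up 39.6% of all listings but only 25 of the 227 members. Over all tables such shared intervals had a median ratio of -1.32 and held 16078 of the 16084 listings called lower. Intervals found in 1 table only had a median of 0.60 and held 2366 of the 2384 called higher. Among the members, the 25 listings with shared intervals had a median of -1.08 and the 202 with their own intervals a median of 0.59. Within own intervals the members and all listings had thus nearly the same median, and 5 of 202 members were called higher, beside 2.73% of all own intervals. Within shared intervals 3 of 25 members were called lower, beside 28.4%.

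By table, the median of the members was above that of all regions in 16 tables, with sgHS2-sg2 the exception. Among own intervals alone this was so in 11 of 17 tables. The largest gap was in the sgHBB table, with a member median of 1.31 against -1.53 for all its regions. There 72.7% of all regions were shared intervals, against 2 of 9 members. The ratios of different tables rest on the same sgGal4 libraries and are not independent of each other.

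**Figure D2:**
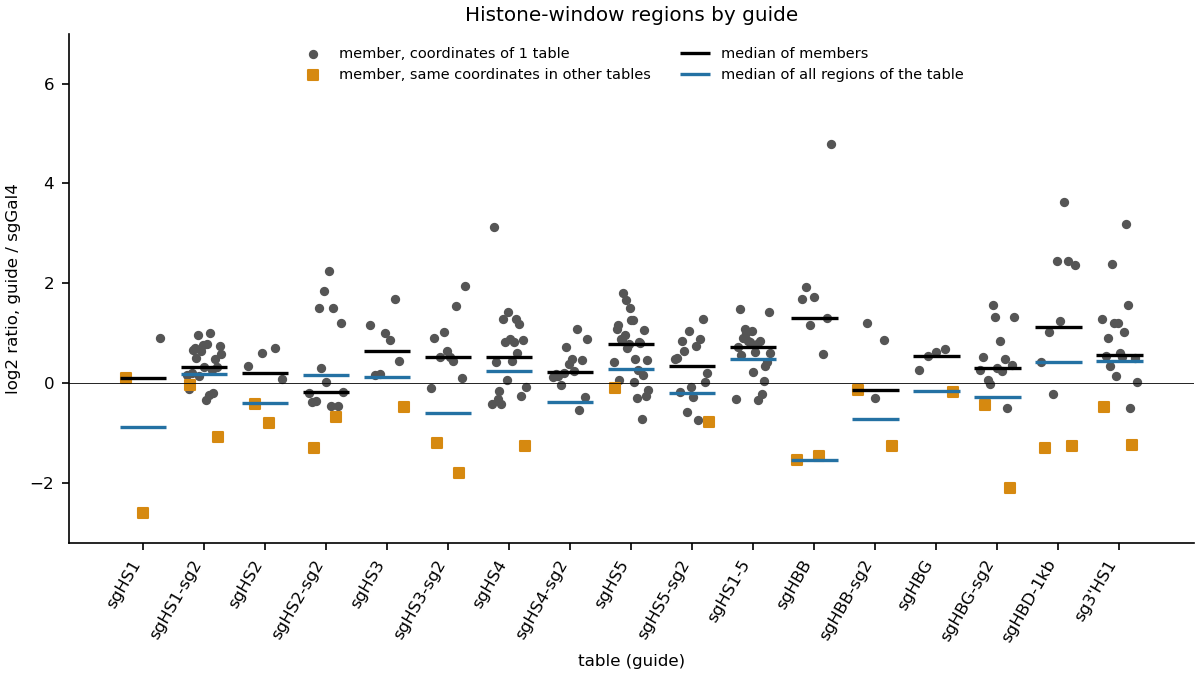
Log2 ratio of each member by guide table, with the median of the members (black line) and of all regions of the table (blue line). Orange squares are members listed with the same coordinates in other tables, of which 24 of 25 lie below 0. The highest single values are in the sgHBB, sgHBD-1kb, sg3'HS1 and sgHS4 tables.

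The highest ratio of the window was at H2BC16P, a processed pseudogene of the H2B family, in the sgHBB table. The single sgHBB library held 251 recovered reads at chr6:27831604-27831903, and sgGal4 replicates 1 to 4 held 4, 11, 0 and 0. The log2 level was 7.98 with the guide and 2.91, 3.43, 3.10 and 3.29 with sgGal4. The guide library stood far above all 4. The ratio was 4.78 and the limma difference 4.80 (SE 0.53), with an adjusted p of 0.0084, where the single guide library was taken to vary like sgGal4. It ranked 34 among the 5164 regions of its table, in which 4.24% were called higher. The nearest coding histone gene, H2AC16, started 1342 bp from its centre. This locus was listed in no other table, so its region is an own interval. Own intervals held all the listings called higher in the sgHBB table and had a median ratio of 1.38 there.

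The sgHBD-1kb guide had 4 of its 10 members called higher, in a table with 9.45% of regions called higher and, among own intervals, 14.5%. The first was at the start of ZNF184, a zinc finger protein gene, at chr6:27440439-27440738, where the region overlaps exons at the 5' end of the gene. Its 2 guide libraries held 50 and 47 reads and the sgGal4 libraries 4, 4, 0 and 0. The log2 levels were 5.67 and 5.95 with the guide and 1.59 to 2.36 with sgGal4, so the groups did not overlap. The ratio was 3.63 and the limma difference 3.65 (SE 0.48, adjusted p = 0.011).

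The other three lay away from gene starts. At chr6:26568828-26569127, the nearest coding gene start is that of ABT1, an activator of basal transcription, 28204 bp away. There the guide libraries held 37 and 33 reads and sgGal4 2, 3, 2 and 2. The ratio was 2.45 (limma difference 2.82, SE 0.77, adjusted p = 0.028). A B box lay 183 bp from its centre, outside the interval printed above. At chr6:27559757-27560056, 119009 bp from the start of ZNF184, the reads were 30 and 34 against 1, 2, 0 and 4, with a ratio of 2.45 (limma difference 3.09, SE 0.89, adjusted p = 0.034). At chr6:27768848-27769147, 6710 bp from the start of H2BC13, they were 21 and 17 against 0, 3, 0 and 1, with a ratio of 2.37 (limma difference 2.78, SE 0.79, adjusted p = 0.032). In all 3 regions both guide levels were above all 4 sgGal4 levels. In the last, 57.6% of its runs of 30 bases were found elsewhere in the genome, with up to 75 copies. None of these regions lay within 1000 bp of a histone gene start.

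Each of these calls in the sgHBD-1kb table was lost without either guide library. Without guide replicate 1 the count of members called higher over all tables fell from 5 to 1, and without guide replicate 2 to 3. Without sgGal4 replicate 1 or 2 it was 2 or 3, and without replicate 3 or 4 it was 8 each time.

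A pair of further members was high without passing the test at these settings. In the sg3'HS1 table the start of ZNF184 appeared again, at chr6:27440711-27441010, with 111 and 15 reads in the guide libraries and 2, 12, 2 and 0 with sgGal4. Its ratio was 3.18 with a limma adjusted p of 0.086. In the sgHS4 table a region at chr6:26026271-26026570, whose centre is 1060 bp from the start of H4C2, an H4 gene, had 153 and 29 reads against 1, 5, 2 and 0. Its ratio was 3.12 with a limma adjusted p of 0.21. In both, every guide level was above every sgGal4 level. The start of ZNF184 was listed once more, in the sgHS5-sg2 table, with 12 and 9 reads against 3, 5, 0 and 0 and a ratio of 1.28 (limma adjusted p = 0.084).

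The number called depended on the sgGal4 libraries used. Depending on the table, 41128 to 169968 reads were recovered from replicates 1 and 2, but 6499 to 18647 from replicates 3 and 4. The level given to a region with 0 reads reached 3.68 in those shallow libraries. With replicates 1 and 2 alone, an alternative added after the data were seen, 74 members were called higher and 8 lower by limma. The shares over all listings were then 24.4% higher and 14.3% lower. Among own intervals 36.6% of members were called higher, beside 40.1% of all own intervals. Of the 5 members called higher with all 4 sgGal4 libraries, 5 were called again. So were the sg3'HS1 and sgHS4 regions above, with limma adjusted p of 0.014 and 0.026. Of the 3 members called lower, 2 were called again, and that of the sgHS1 table was not. The 74 fell on 50 loci in 14 tables, with PRSS16 called in the most tables, 5.

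**Figure D3:**
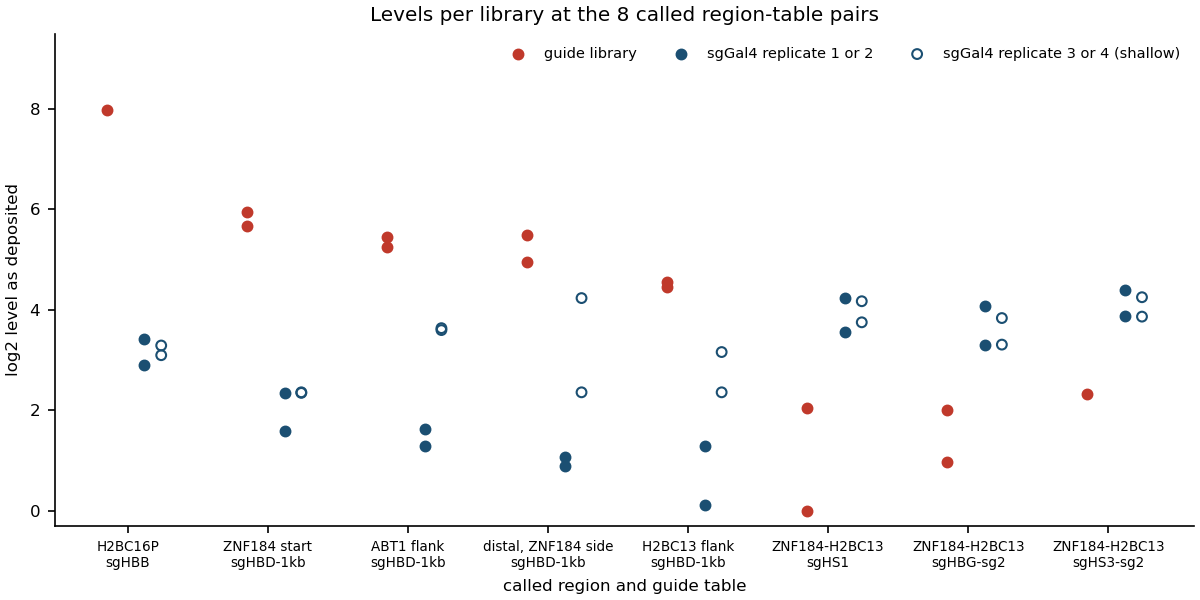
Log2 level of every library at the 8 called listings, as deposited, with guide libraries in red and sgGal4 libraries in blue (open circles for the shallow replicates 3 and 4). At the 5 listings on the left each guide level is above the sgGal4 levels, by most at H2BC16P (7.98 against at most 3.43), and at the 3 on the right each is below.

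The region over H3C7, which encodes a core histone H3, was listed in every table. The merged locus ran from 26250155 to 26250863, the base at which the minus-strand gene starts. Its ratio had a median of -0.42 and ranged from -1.55 in the sgHBB table to 0.26. Limma called 0 of the 17 listings, beside 1.66% of all listings called higher and 11.2% lower. Of the 17, 0 had an unadjusted limma p below 0.05, beside 31.5% of all listings. At the interval printed above, sgGal4 replicates 1 to 4 held 13, 17, 3 and 0 reads. The guide libraries there held from 0 reads in sgHS2 replicate 2 to 21 in sgHS1-sg2 replicate 1. In the sgHBB table the guide library held 5 reads and stood at a log2 level of 2.58, below all 4 sgGal4 levels of 3.29 to 4.55. Its limma difference was -1.47 (SE 0.65) with an adjusted p of 0.10. In the sgHBD-1kb table the levels of 1.98 and 2.32 were also below all sgGal4 levels, of 2.35 to 3.92, and so were the single libraries of sgHS2-sg2, at 2.58, and sgHS3-sg2, at 2.81. With sgGal4 replicates 1 and 2 alone, limma called this region lower in 4 tables, those of sgHBB, sgHS2-sg2, sgHBD-1kb and sgHS3-sg2. With the same libraries, 57.5%, 30.9%, 27.5% and 41.0% of all regions of these tables were called lower, in that order.

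The ZNF184-H2BC13 region at chr6:27618634-27618933 was the other locus of every table, 156924 bp from the nearest coding gene start. The reads of sgGal4 replicates 1 to 4 were 9, 29, 1 and 2. Its ratio had a median of -1.08, from -2.61 to 0.04, and it held all 3 listings called lower. In the sgHS1 table both guide libraries had 0 reads, which allows up to 3 reads each, at log2 levels of 0.00 and 2.04 against 3.55 to 4.24 with sgGal4 (ratio -2.61, limma difference -2.91, SE 0.58, adjusted p = 0.027). In the sgHBG-sg2 table they had 3 and 1 reads, at levels of 2.00 and 0.97 against 3.31 to 4.07 (ratio -2.09, limma difference -2.15, SE 0.53, adjusted p = 0.015). In the sgHS3-sg2 table the single guide library had 4 reads, at 2.32 against 3.86 to 4.40 (ratio -1.79, limma difference -1.78, SE 0.45, adjusted p = 0.021). In each of these tables the guide levels were below all sgGal4 levels. These tables had 18.5%, 22.4% and 31.1% of their regions called lower.

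The same region was low in the sgHBB table without passing the test, with 6 reads and a ratio of -1.46 (limma adjusted p = 0.091). At the other end, the pool sgHS1-5 had 24, 33, 3, 1, 5 and 3 reads in its 6 libraries and the highest ratio, 0.04. The call in the sgHS1 table was lost without any single sgGal4 library, with limma adjusted p of 0.050 to 0.080, and without guide replicate 1, at 0.14, and that of sgHBG-sg2 without guide replicate 2, at 0.15. That of sgHS3-sg2 was lost without sgGal4 replicate 1, at 0.050.

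**Figure D4:**
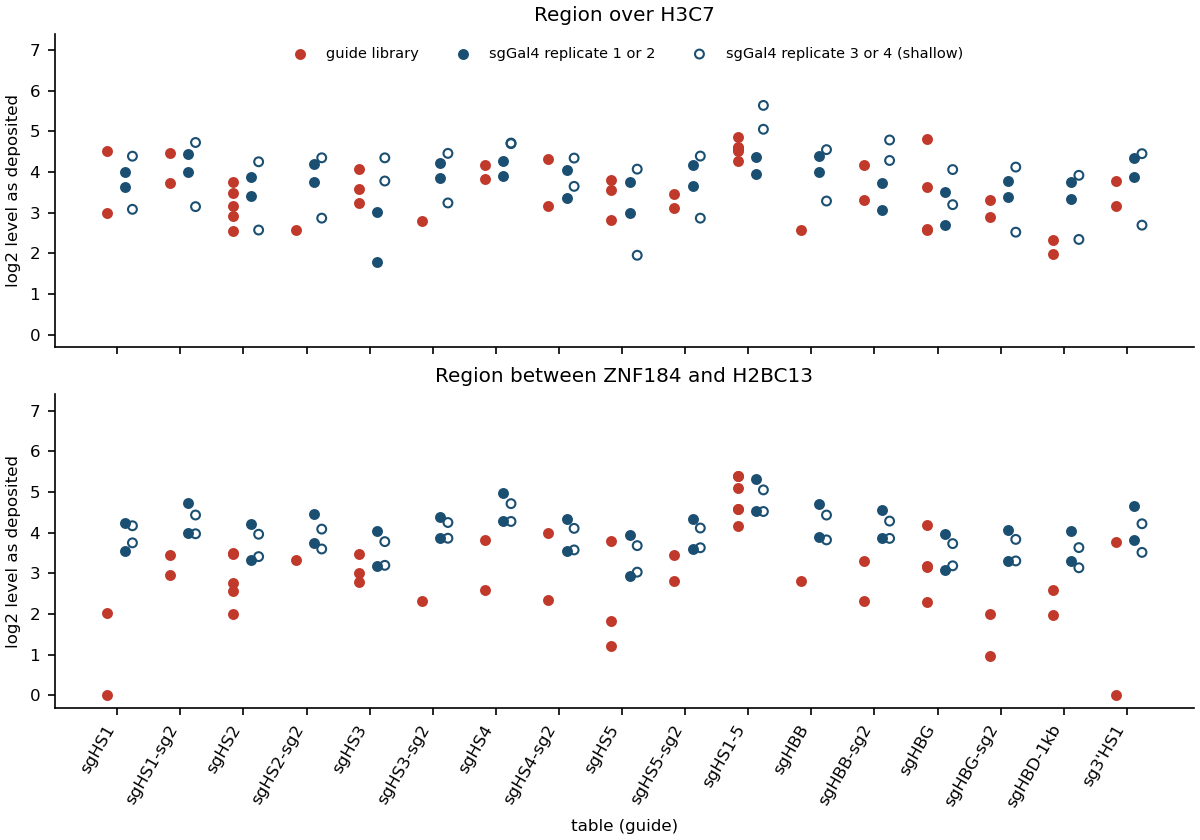
Log2 levels as deposited, by guide table, at the H3C7 region (top) and the ZNF184-H2BC13 region (bottom), the 2 loci listed in all 17 tables. Red points are guide libraries, filled blue points sgGal4 replicates 1 and 2, and open circles the shallow replicates 3 and 4. At H3C7 the groups mostly overlap, whereas at the ZNF184-H2BC13 region the guide levels lie below those of sgGal4 in most tables and reach 0 in the sgHS1 and sg3'HS1 tables.

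Members at histone gene starts had lower ratios than the other members. The 45 listings had a median of -0.04 and a range of -1.55 to 1.95, and 5, or 11.1%, had a ratio of at least 1. The 182 others had a median of 0.61. All listings at the start of any coding gene had a median of 0.53, with 25.1% at a ratio of at least 1. These medians mix shared and own intervals. Among own intervals the 34 listings at histone starts had a median of 0.16, the other members 0.67 and all listings at gene starts 0.67. By limma 0 of the 45 were called, beside 2.09% higher and 1.83% lower of all listings at gene starts. An unadjusted limma p below 0.05 was seen for 2, or 4.44%, beside 18.7% of all listings at gene starts. H3C7 gave 17 of the 45, and without it the other 28 had a median of 0.22. With sgGal4 replicates 1 and 2 alone, 4 of the 45 were called higher, beside 32.4% of all listings at gene starts, and 4 lower, or 8.89%, beside 3.46% of all listings at gene starts. The 4 lower ones were all over H3C7.

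Among the H3 genes, H3C1 was listed in 5 tables with ratios of -0.41 to 0.48. In the sgHS4 table its guide libraries held 23 and 6 reads and its sgGal4 libraries 19, 40, 2 and 2. It had the highest mean of sgGal4 reads among the 10 loci listed most often, 14.1 per library. A region between H3C8 and the H2B gene H2BC10, whose start is the nearer, and one at H3C11 were listed once each, at 0.06 and 0.47.

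The H4 genes were the nearest histone start of 19 listings, which had a median of 0.26, and all 5 members at histone starts with a ratio of at least 1 were at H4 genes. H4C4 was listed in 6 tables, with ratios of -0.37 to 0.50, and H4C3 in 4, with ratios of -0.32 to 0.13. H4C11 had the highest ratio of the histone starts, 1.95 in the sgHS3-sg2 table, where the guide library held 22 reads and each of the 4 sgGal4 libraries 0 (limma adjusted p = 0.13). In the sgHBG-sg2 table H4C11 had 20 and 12 reads against 4, 4, 1 and 1 and a ratio of 1.33 (limma adjusted p = 0.11). In the sgHS5 table, in which the region lay mostly past the end of the gene, the ratio was -0.26. H4C9 had ratios of 1.29 with sgHS4 and 1.21 with sg3'HS1, on 18 and 6 and on 13 and 1 guide reads. H4C8 stood at 1.01 in the sgHBD-1kb table, with 10 and 11 reads against 4, 6, 2 and 0. H4C6 was listed in 2 tables, at 0.53 and 0.64, and H4C13 in that of sgHS1, at 0.90. H4C1 had no region of its own: 2 of the H3C1 listings, at -0.41 and 0.48, also lay within 1000 bp of its start and are counted with H3C1.

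The other families were rarely listed at their starts. H1-3, a linker histone gene, had 1 listing at 0.41, and a region shared by H2AC7 and H2BC7, which start close together, had 1 at 0.89. The histone genes not named here had no listing within 1000 bp of their start. Histone gene starts outside the window, on other chromosomes, gave 22 listings in 13 tables. Their median was 1.11, and 12 of 22 had a ratio of at least 1, beside 25.1% of all listings at gene starts. All 22 were own intervals. Among own intervals at gene starts the median was 0.67, and 29.6% had a ratio of at least 1. By limma 0 of the 22 were called, beside 2.09% higher and 1.83% lower of all listings at gene starts. An unadjusted limma p below 0.05 was seen for 7, or 31.8%. The share was 18.7% of all listings at gene starts and 31.5% of all listings. With sgGal4 replicates 1 and 2 alone, limma called 5 of the 22 higher, or 22.7%, beside 32.4% of all listings at gene starts. It called 0 lower, beside 3.46%. The medians were then 1.24 and 1.10. With a pseudocount of 5 reads the median of the 22 was -0.44. They included genes of replication-independent variants, H2AZ2 with 5 listings at 0.85 to 1.27 and H3-3B with 5 at 0.99 to 1.99. Their median GC content was 68.8%, against 57.3% at the histone starts of the window, and its part in the ratios was not tested.

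Away from histone genes, several loci recurred at moderate ratios. A region over an exon of ZNF391, a zinc finger gene, was listed in 8 tables with ratios of -0.31 to 1.19. It was highest in the sgHS4 table, with 25 and 13 reads against 3, 6, 1 and 1. A coding exon of PRSS16, a serine protease gene of the thymus, was listed in 7 tables, at 0.48 to 1.01. Its reads in the pool sgHS1-5 were 22, 30, 2, 4, 18 and 7 against 4, 3, 3 and 1. A region at HCG11, a non-coding RNA gene, was listed in 7 tables at -0.35 to 1.03. The start of ZNF391 itself appeared in 4 tables at 0.48 to 1.50.

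Further recurrent loci lay outside coding genes. The locus at 27655227 to 27655670 had 6 listings at -0.09 to 0.74. The locus at 26532987 to 26533720, in which a B box lies, had 6 at 0.54 to 1.50. The locus at 27156260 to 27156964 had 5 at -0.34 to 1.08. The locus at 27059469 to 27060241, also with 5 listings but fewer sgGal4 reads, had ratios of 0.65 to 1.48 and was added after its values were seen. At ZNF391, PRSS16, HCG11 and these loci no listing passed the limma test with all 4 sgGal4 libraries.

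The locus with the most recovered guide reads differed from table to table. A histone gene start held this place in the sgHS1 table (H4C13, 21 reads), the sgHS4-sg2 table (H4C3, 35) and the sgHBG-sg2 table (H4C11, 32). The start of ZNF184 held it in the sgHBD-1kb and sg3'HS1 tables, with 97 and 126 reads. H2BC16P held it in the sgHBB table with 251 and the H4C2 flank in the sgHS4 table with 182. PRSS16 led in the pool with 83, and HCG11 in the sgHS3-sg2 and sgHS5-sg2 tables with 25 and 36. In the sgHS5 table a region 10675 bp from the start of ABT1 led with 112 reads. In the remaining 6 tables the leading region held 33 to 55 reads.

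B boxes were far more frequent in the members than elsewhere. Of the 205 member intervals 17, or 8.29%, contained one, against 0.136% of the 91133 distinct intervals of all tables. Within 500 bp of the centre the shares were 14.6% and 0.435%. The window itself held 37 of the 1143 matches on the listed chromosomes, or far more than its share of the bases, and 0 of the 36 intervals at histone starts held one. Transfer RNA genes whose B box has other letters are missed by this search. The 30 listings within 500 bp of a B box had a median ratio of 0.57, and 1 was called higher, the ABT1 flank, or 3.33%, beside 1.66% of all listings. Members away from histone starts and from B boxes had a median of 0.61. The region printed above with its B box had 28 and 21 reads in the sgHBD-1kb table against 12, 20, 2 and 2, and a ratio of 1.23 (limma adjusted p = 0.063).

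Other promoter motifs were searched in the same intervals. CCAAT on either strand was in 25.9% of the member intervals and 28.5% of all, TATAAA in 12.7% and 8.96%, and the octamer ATTTGCAT, known from H2B promoters, in 0.976% and 1.20%. A match to such short letters is a description and not a binding site.

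Finally, the share of recovered reads was compared, counted over the regions listed in each table. In guide libraries the window held 0.0701% to 0.520% of these reads, with a median of 0.190% over 42 libraries. In sgGal4 libraries it held 0.0308% to 0.427%, depending on the table. The mean of the guide libraries was above that of the sgGal4 libraries in 17 of 17 tables, and every guide library was above every sgGal4 library in 7. Without each table's locus of most guide reads the first count was 13. Of the 227 listings 202 were intervals of 1 table only, so a higher guide share cannot be told apart from the way the regions were listed. The regions were listed separately for each table.

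The highest share was in the sgHBB library, at 0.520% (exact 95% Clopper-Pearson interval 0.474% to 0.570%, counting error only), against 0.139% ± 0.038 (SD, n = 4) in its sgGal4 libraries. The H2BC16P region gave 251 of its 459 reads in the window, and without that region the share was 0.236%, against 0.0952% to 0.185% in sgGal4. The sgHBD-1kb libraries held 0.244% ± 0.035 (SD, n = 2) against 0.122% ± 0.012 (SD, n = 4), without overlap. In the pool sgHS1-5 the shares were 0.151% ± 0.039 (SD, n = 6) and 0.143% ± 0.026 (SD, n = 4), a difference smaller than the spread. In the sgHS2 table the guide libraries ran from 0.0702% to 0.195% and overlapped sgGal4. The share over all members was given no test.

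**Figure D5:**
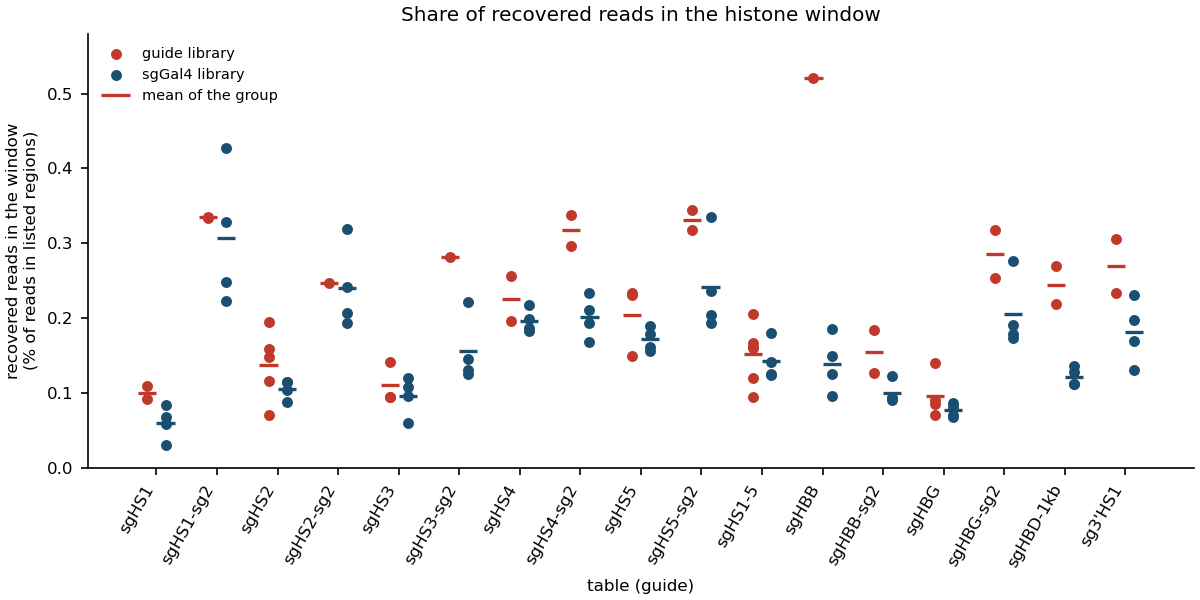
Recovered reads in the histone window as a percentage of the reads in all listed regions of the same table, per library. Red points are guide libraries and blue points sgGal4 libraries, with short lines at the group means. The red mean is above the blue mean in each of the 17 tables, and the sgHBB library, at 0.520%, stands highest.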

How the data were processed

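The submitters' processing notes name hg19, Bowtie 1.0.0 and Picard for the CAPTURE-ChIP-seq reads from K562. Reads with a single place in hg19 were kept, per the labels' protocols. The sources used here do not give the peak caller or the normalization. The authors deposited log2 levels per library in 17 tables of 300 bp regions, each normalized separately. The headers state no unit, so log2 was taken from the values. Within a column each level was linear in log2(reads + 1), so whole reads were recovered for 100% of values within 0.01. For high counts this limit was widened in proportion to the count. The level is not the log2 of reads, since the slope of that line differs between columns.

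Of 61 samples, 46 had columns. The other 15 were not analysed here. Each table's guide libraries were compared with its 4 sgGal4 libraries by limma 3.58.1 in R 4.3.3, on the log2 levels of all regions, with Benjamini-Hochberg adjustment within the table. A lone guide library was assumed to scatter as sgGal4 does. The fit was also tested on simulated data, with normally scattered levels, no floor for low reads and 200 changed regions a table. With a simulated rise of 4 (log2), 57.0% of changed regions were recovered in the sgHS2-sg2 table, 87.0% in that of sgHBB and 98.5% in that of sgHBD-1kb. With a rise of 2 it was 0.0% in all of these. In the tables of sgHS1, sgHS2 and sgHBB-sg2 it was then 66.5%, 68.5% and 68.0%. The data held other numbers of changed regions, with 939 called higher in the sgHBD-1kb table. The simulated shares therefore need not hold for the calls above. Genes came from GENCODE 44 lifted to GRCh37, whose coordinates are those of hg19. 3 histone genes (H2BC7, H2BC8 and H4C6) were placed by an exact match of their RefSeq promoter bases. Positions count from 1.

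Named regions were the 10 loci listed in most tables (ties by mean reads in sgGal4), every called listing, the 5 highest and 5 lowest ratios, and the locus with the most guide reads in each table. Each histone gene with a listing near its start is named. The members and lists were chosen with earlier results of these data known. Alternatives covered the scale, filter, centring, variance model, replicates, replicate block and distance to a start. Depth limits precision: guide libraries held 7127 to 432553 reads in listed regions, and intervals on shares cover counting error only.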

Additional observations from a re-analysis of the deposited data

Results flagged for a closer look

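Chance marks about 1 in 20 groups as holding a value apart, and 2 of the 60 groups tested did so, each among the 4 sgGal4 libraries of a table. In the sgHBB-sg2 table the highest sgGal4 library, replicate 2, held 0.123% of its recovered reads in the histone window, and the other three held 0.0900% to 0.0934%. In the sgHBG-sg2 table the highest, replicate 4, held 0.276%, and the others 0.174% to 0.191%.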

How the results depend on the processing

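The counts moved with the scale of the values and with the sgGal4 libraries used. On recovered reads with a pseudocount of 5 reads, limma called 0 members higher, with 1 at an unadjusted p below 0.05 and a ratio of at least 1, and 1 lower. The median ratio was then -0.73, the difference between histone starts and other members -0.14, and the median of histone starts elsewhere -0.44. With a pseudocount of 1 read the last was 0.56 and the median of the members -0.012. Members called higher numbered 10 without the regions of lowest level, 14 after centring, 13 with a variance trend and 74 with sgGal4 replicates 1 and 2 alone, an alternative chosen after seeing the data, as were those that leave out loci. With these 2 sgGal4 libraries 8 were lower and the median was 1.08. Without the 2 loci of every table, or with own intervals only, limma called 0 lower, since no ratio there was under -0.75.

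Leaving out a replicate gave 1 to 8 called higher and 1 to 4 lower, a median of 0.36 to 0.66, a difference at histone starts of -0.82 to -0.42 and a median elsewhere of 0.87 to 1.26. The replicate block, fitted in the 14 tables with 2 or more pairs, raised the count called higher to 16. Tables with a single guide library kept the main fit in this count. Whether the numbers pair libraries was not settled. Same-numbered libraries correlated at -0.25 to 0.22. Both extremes were in the sg3'HS1 table, where the deviations of 2 guide libraries from their mean are opposite by construction. In the 5 tables with 3 or more pairs, 4 of 18 libraries correlated best with their own number. Of the 8 called listings, H2BC16P lost its call under 1 alternative and the sgHS1 listing under the most. The causes were not tested.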
